A study of Mus musculus with 6 samples.

Results

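The genes described here carry MHC class I and class II antigen presentation in CpG-activated splenic B cells of lupus-prone mice. They were every gene of the deposited table whose symbol starts with H2-, the mouse MHC prefix (43 genes), plus the 12 genes Cd74, Ciita, Ctss, Tap1, Tap2, Tapbp, B2m, Nlrc5, Erap1, Rfx5, Rfxap and Rfxank. That made 55 of the 41669 gene symbols measured. They were chosen by name and not by their values. Females (3 mice) were compared with males (3 mice), and the design text of the series states this comparison. All 6 mice were NZB/W F1, a hybrid of the NZB and NZW strains, with lupus-like disease at a late stage. Their splenic B cells had been enriched by positive selection on a column and then cultured for 24 h with CpG, a ligand of Toll-like receptor 9. Each library came from a separate mouse, so the spread is between animals. There was no group without disease or without CpG, and ages were not given in the sources used here.

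MHC class I molecules are made of a heavy chain and beta-2-microglobulin and show peptides from inside the cell to CD8 T cells. Those peptides are cut and carried into the endoplasmic reticulum by the proteasome, the TAP transporter and trimming enzymes, and the regulator NLRC5 drives the genes. MHC class II molecules pair an alpha with a beta chain, travel with the invariant chain CD74, and show peptides from endosomes to CD4 T cells. Their genes are switched on by the coactivator CIITA, which works through the RFX and NF-Y proteins at promoters, and B cells carry class II constitutively. NZB mice have the H2d haplotype and NZW mice the H2z haplotype, and both differ in sequence from the C57BL/6 reference, which has H2b. A level below is therefore the level of reads that could be assigned to the reference version of a gene.

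Of the 55 genes, 46 lie on chromosome 17 between 33915899 and 37483552 (GRCm38), among them all 43 H2- genes, Tap1, Tap2 and Tapbp. H2-Aa is at 34282744 to 34287823, H2-Ab1 at 34257689 to 34269419, H2-Eb1 at 34305867 to 34316674, H2-K1 at 33996017 to 34000347 and H2-D1 at 35262730 to 35267499. B2m lies on chromosome 2 at 122147686 to 122153083. The 150 bases before the start of 6 genes are shown as examples of promoter stretches. Whether the factors named above bind there was not tested. The core of the Y box bound by NF-Y, GATTGG on either strand, is in capitals. The stretches are from the RefSeq promoter table of GRCm38.p6 and lie at chr17:34287824-34287973 (- strand), chr17:34305717-34305866 (+ strand), chr17:34238755-34238904 (+ strand), chr2:122147537-122147686 (+ strand), chr17:35262944-35263093 (+ strand) and chr17:36772760-36772909 (+ strand), in the order given.
H2-Aa: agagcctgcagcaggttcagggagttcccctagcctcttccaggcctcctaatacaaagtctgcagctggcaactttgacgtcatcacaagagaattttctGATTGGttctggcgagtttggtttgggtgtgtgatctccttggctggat
H2-Eb1: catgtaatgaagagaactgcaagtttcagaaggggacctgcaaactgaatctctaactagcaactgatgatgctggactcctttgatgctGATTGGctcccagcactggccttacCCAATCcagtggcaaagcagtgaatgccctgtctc
H2-Ob: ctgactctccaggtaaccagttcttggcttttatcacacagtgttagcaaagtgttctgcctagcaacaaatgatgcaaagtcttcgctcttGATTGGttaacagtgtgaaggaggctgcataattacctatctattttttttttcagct
B2m: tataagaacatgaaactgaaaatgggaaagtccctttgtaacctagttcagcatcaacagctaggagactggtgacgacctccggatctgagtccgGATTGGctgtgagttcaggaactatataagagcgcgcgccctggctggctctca
H2-D1: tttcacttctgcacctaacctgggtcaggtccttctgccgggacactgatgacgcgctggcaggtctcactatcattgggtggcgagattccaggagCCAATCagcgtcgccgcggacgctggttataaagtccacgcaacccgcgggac
H2-M10.5: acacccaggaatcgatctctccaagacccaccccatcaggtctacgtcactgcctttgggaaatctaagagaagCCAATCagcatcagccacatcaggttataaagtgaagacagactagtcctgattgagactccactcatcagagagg

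The Y box core began 49 bases before the start of H2-Aa, 60 before H2-Eb1, 58 before H2-Ob, 54 before B2m, 53 before H2-D1 and 76 before H2-M10.5. In windows from 250 bases before to 50 bases after the start, 38 of the genes had 41 windows in the table, and 31 of the 41 held GATTGG on 1 of the strands. Of all 32851 windows of that length, 16.1% held it. In 21 of the 31 the first match began 40 to 90 bases before the start. All 6 windows of the H2-M10 genes held it, 70 to 77 bases before the start, and these genes were listed at 0 in every library. A match is a description of the reference letters and not a binding site.

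The estimated counts summed to between 24089561 and 35659883 per library, so 3 counts, the floor used here, corresponded to 0.0841 to 0.125 CPM. This floor covers counting error only. CPM are counts divided by the column total and scaled to a common library size, and levels below are on that scale. Of the 55 genes, 35 passed the low-count filter, 14 were listed at 0 in all 6 libraries, and 6 (H2-DMa, H2-M2, H2-M5, H2-Oa, H2-T3 and Rfxank) had counts but did not pass. Ms4a1, which encodes the B cell surface protein CD20, had 1424, 1470 and 1658 CPM in females, against 1630, 1479 and 1632 CPM in males, and all 10 B cell markers of a fixed list were detected. In female replicate 3, tested genes of the lowest quartile of transcript GC content deviated from the mean of the other 5 libraries by a median of 0.11 log2 units, and those of the highest quartile by -1.15. The MHC genes lay towards the GC-rich end. Of the 35 tested ones, 29 were above the median GC content of all tested genes (48.1%), and 19 were in the highest quartile (above 52.7%). In all 6 libraries together, the median of the mean level of tested genes was 11.6 CPM per kb of transcript in the lowest GC quartile and 1.16 CPM per kb in the highest. A low level of a GC-rich gene below therefore stands beside low levels of GC-rich genes at large.

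Per kb of the longest annotated transcript, the scale on which levels of different genes can be compared, B2m was the highest of the set with a mean of 713 CPM per kb over the 6 libraries (range 541 to 848). Ctss followed with 101 CPM per kb (91.2 to 121) and Erap1 with 50.1 (45.0 to 58.7). Neither of these ranges overlapped that of its neighbour in the order. H2-D1 had 26.8 CPM per kb (17.6 to 32.3) and H2-Aa had 15.0 (7.83 to 19.9), and their ranges overlapped. H2-K1 and H2-Ob both had 11.2 CPM per kb, with ranges of 4.56 to 14.7 and 7.89 to 12.4. The 3 genes with the highest level per kb had GC contents of 41.2% (B2m), 46.0% (Ctss) and 41.5% (Erap1). Across the 35 tested genes of the set, which come from the same libraries and are not independent, the level per kb had a Spearman correlation of -0.55 with GC content, and across all 12014 tested genes with a known GC content it was -0.35. Cd74 had 8.53 CPM per kb (GC 56.6%) and H2-Ab1 had 3.64 (GC 57.3%), both above the median of the highest GC quartile.

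The class II chains were led by H2-Aa, the alpha chain of I-A. It had 64.2, 40.2 and 25.2 CPM in females, against 63.5, 36.3 and 60.0 CPM in males. Female replicate 3 was the lowest and the groups overlapped (log2 fold change, female over male, -0.21 ± 0.30 SE; edgeR adjusted p = 0.999). H2-Ab1, the beta chain that pairs with it, had 6.82, 3.70 and 0.0593 CPM in females, against 6.75, 2.71 and 6.46 CPM in males. The female replicate 3 value was 2.12 estimated counts, under the floor, while the other libraries had 74.2 to 215 counts (edgeR log2 fold change -0.58 ± 1.04, adjusted p = 0.999). Without female replicate 3 the log2 fold change of H2-Ab1 was -0.02 and that of H2-Aa was -0.03, while without female replicate 1 they were -1.41 and -0.51. For H2-Ab1 it was -1.11 with the mouse number as a block and -1.95 with limma-voom. Of the libraries with H2-Ab1 above the floor, male replicate 2 was the lowest, and it was also the lowest male for H2-Aa.

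H2-Eb1, the beta chain of I-E, was low, with 1.13, 0.545 and 0 CPM in females, against 2.44, 0.641 and 0.291 CPM in males. Female replicate 3 was at 0, while the other libraries had 9.66 to 77 estimated counts. H2-Ea-ps, the alpha chain gene of I-E, which is not functional in the reference strain, was listed at 0 in all 6 libraries. These mice carried other haplotypes than that strain, so the 0 cannot be read through its defect. H2-Eb2, a further class II beta gene, had 17.6, 21.8 and 29.1 CPM in females, against 17.0, 15.2 and 16.1 CPM in males. Every female was above every male, and female replicate 3 was the highest. The log2 fold change of H2-Eb2 was 0.69 ± 0.29 (SE; edgeR adjusted p = 0.999), so it did not pass. It had the lowest GC content of the class II chains (43.5%). Without female replicate 3 the log2 fold change was 0.32, and after correction for transcript length and GC content it was 0.59. The 5 class II chain genes summed to 89.8, 66.3 and 54.4 CPM in females, against 89.7, 54.8 and 82.8 CPM in males, and the groups overlapped.

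**Figure D1:**
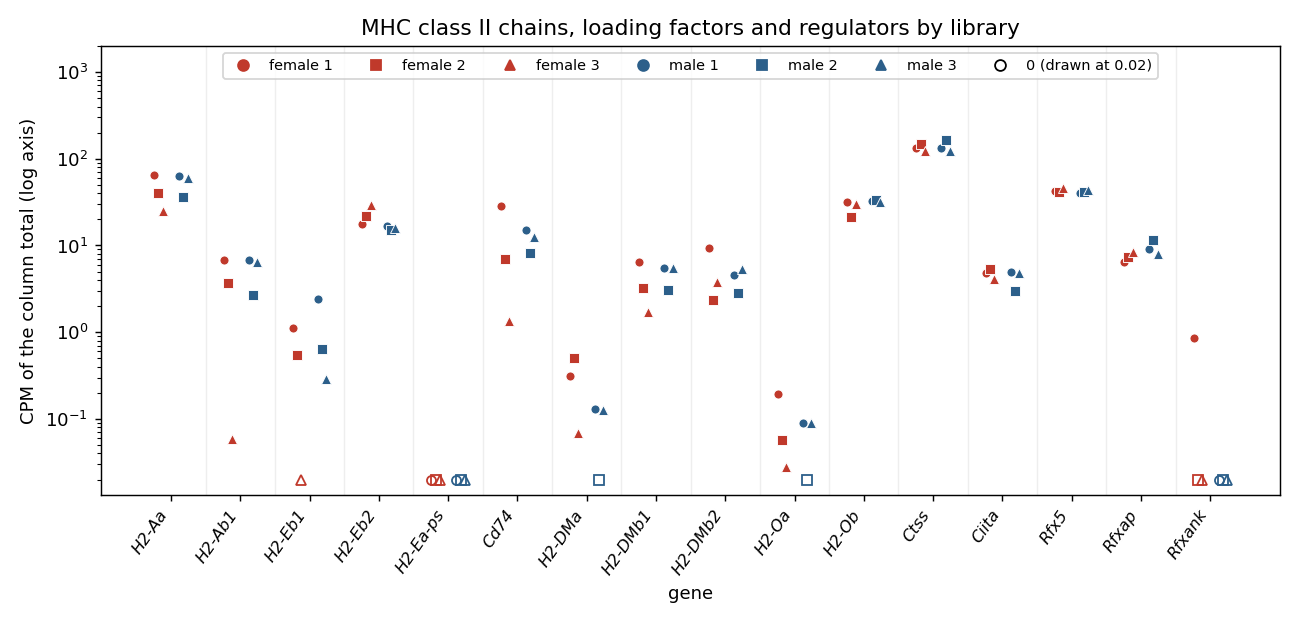
Level of each class II chain, loading and regulator gene in CPM of the column total (log axis), 1 point per library, females in red left of males in blue, with values of 0 as open symbols at 0.02. Ctss and Rfx5 lie close together in all 6 libraries, while H2-Ab1 and Cd74 are lowest in female 3, at 0.0593 and 1.33 CPM.

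Cd74, the invariant chain, spread most among the tested class II loading genes. It had 28.3, 6.95 and 1.33 CPM in females, against 14.9, 8.28 and 12.4 CPM in males. The highest and the lowest library were both female, and the mean was 12.2 ± 14.2 CPM in females and 11.9 ± 3.33 CPM in males (SD, n = 3 each; edgeR log2 fold change 0.05 ± 0.82 SE, adjusted p = 1.00). Without female replicate 1 the log2 fold change was -1.39, and with limma-voom it was -0.77, so no direction is given. H2-DMb1 and H2-DMb2 encode beta chains of H2-DM, which swaps the invariant chain fragment for peptide. H2-DMb1 had 6.50, 3.22 and 1.69 CPM in females, against 5.57, 3.09 and 5.55 CPM in males, and H2-DMb2 had 9.45, 2.37 and 3.78 CPM in females, against 4.62, 2.87 and 5.29 CPM in males. Both pairs of groups overlapped. In the reference, 31.4% of the 31-base words of H2-DMb1 transcripts also occur in H2-DMb2, so the split between them is uncertain. H2-DMa, the alpha chain, reached at most 0.510 CPM.

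H2-Ob, the beta chain of H2-DO, which restrains H2-DM in B cells, was steadier. It had 31.7, 21.1 and 30.4 CPM in females, against 32.2, 33.2 and 31.5 CPM in males. Female replicate 2 was the lowest, and the log2 fold change was -0.07 ± 0.23 (SE; edgeR adjusted p = 0.999). H2-Oa, the partner alpha chain, reached at most 0.193 CPM and had 13.1 estimated counts over all 6 libraries. The GC contents of this pair were 46.0% for H2-Ob and 56.5% for H2-Oa. Ctss, the protease cathepsin S that trims the invariant chain, had 132, 148 and 124 CPM in females, against 132, 164 and 124 CPM in males (edgeR log2 fold change 0.08 ± 0.16, adjusted p = 0.999). Its lowest values, 124 CPM, were the same in both sexes.

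Among the regulators of class II, Ciita had 4.77, 5.34 and 4.12 CPM in females, against 4.96, 2.96 and 4.82 CPM in males (edgeR log2 fold change 0.29 ± 0.31 SE, adjusted p = 0.999). Male replicate 2 was the lowest. Among the males it was also the lowest for H2-Aa, H2-Ab1, H2-Eb2, Cd74, H2-DMb1 and H2-DMb2, but not for H2-Eb1, H2-Ob and Ctss. Female replicate 3, the lowest library for H2-Aa, H2-Ab1 and Cd74, was not the lowest for Ciita. Whether the level of Ciita goes with those of the class II genes was not tested. Rfx5, the DNA-binding subunit of the RFX complex, had 42.0, 41.5 and 46.3 CPM in females, against 40.3, 41.7 and 43.1 CPM in males. It had the smallest spread among the regulators named here relative to its level, 43.2 ± 2.62 CPM in females and 41.7 ± 1.41 CPM in males (SD, n = 3 each). Rfxap, its partner, had 6.46, 7.34 and 8.48 CPM in females, against 9.04, 11.7 and 8.07 CPM in males. Female replicate 3 lay within the male range, and the log2 fold change was -0.20 ± 0.29. Rfxank, the third subunit, had 20.4 estimated counts in female replicate 1 and was listed at 0 in the other 5 libraries. In the reference, 33.7% of its 31-base words also occur in other genes, most of them in Nr2c2ap, with which reads could be shared.

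Class I chains showed a different pattern from B2m, their shared light chain. B2m had 565, 465 and 729 CPM in females, against 637, 637 and 647 CPM in males, with the highest and the lowest library both female (edgeR log2 fold change 0.05 ± 0.25 SE, adjusted p = 0.999). With scaling by library totals only the log2 fold change was -0.13, and without female replicate 3 it was -0.30. H2-D1, a classical heavy chain, had 63.4, 41.9 and 36.9 CPM in females, against 67.9, 63.2 and 64.7 CPM in males. Female replicate 1 lay within the male range and the other females below it (edgeR log2 fold change -0.35 ± 0.17 SE, adjusted p = 0.999). H2-K1, the other classical heavy chain, had 27.6, 11.9 and 8.54 CPM in females, against 26.9, 26.5 and 24.4 CPM in males. Female replicate 1 was above every male, and the log2 fold change was -0.62 ± 0.35 (SE; edgeR adjusted p = 0.999). After the correction for length and GC content, the log2 fold changes were -0.03 for H2-D1 and -0.44 for H2-K1. Without female replicate 1 they were -0.51 and -1.14, and without female replicate 3 they were -0.30 and -0.40.

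The Q genes, which lie beside H2-D1 and encode nonclassical chains such as Qa-2, also had female replicate 1 above the other females. H2-Q4 had 27.9, 11.9 and 10.8 CPM in females, against 29.9, 29.4 and 30.9 CPM in males. Every female was below every male, and female replicate 1 was close to the male range (edgeR log2 fold change -0.75 ± 0.31 SE, adjusted p = 0.999). H2-Q6 had 15.2, 5.56 and 3.93 CPM in females, against 17.7, 15.1 and 15.5 CPM in males. H2-Q7 had 25.7, 11.1 and 12.7 CPM in females, against 28.0, 25.5 and 28.0 CPM in males. H2-Q10, known as a secreted chain of liver, had 10.3, 4.51 and 6.11 CPM in females, against 11.9, 11.8 and 9.70 CPM in males. In each of these 3 genes female replicate 1 was inside the male range and the other females were below it, with log2 fold changes of -0.90 ± 0.42, -0.61 ± 0.28 and -0.55 ± 0.31 for H2-Q6, H2-Q7 and H2-Q10 (edgeR adjusted p = 0.999 each). Without female replicate 1 the log2 fold changes were -1.18 for H2-Q4, -1.56 for H2-Q6, -0.95 for H2-Q7 and -0.82 for H2-Q10. Without female replicate 2 they were -0.55, -0.70, -0.39 and -0.31 for the same genes.

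Of the T genes, H2-T22, a ligand of some gamma delta T cell receptors, had 8.43, 5.42 and 4.34 CPM in females, against 9.54, 8.23 and 9.60 CPM in males. H2-T24 had 12.0, 6.83 and 5.69 CPM in females, against 8.01, 10.2 and 8.51 CPM in males, with female replicate 1 the highest of all. Their log2 fold changes were -0.49 ± 0.26 and -0.02 ± 0.28 (edgeR adjusted p = 0.999 each). H2-T23, which encodes Qa-1, a ligand of the CD94 and NKG2A receptor, averaged 3.11 ± 2.61 CPM in females and 4.57 ± 0.579 CPM in males (SD, n = 3 each). H2-M3, which presents formylated bacterial peptides, averaged 3.77 ± 0.675 CPM in females and 4.85 ± 0.724 CPM in males. Of the remaining H2- genes, H2-Bl, H2-K2, H2-Q1, H2-Q2, H2-Q5, H2-T10 and H2-Ke6 passed the filter with means of 0.353 to 3.54 CPM over the 6 libraries, and none had an unadjusted p under the threshold of 0.05. H2-T10, a close relative of H2-T22, had 5.57, 2.12 and 1.09 CPM in females, against 5.53, 2.95 and 3.99 CPM in males. H2-Q5 had 3.57, 1.65 and 1.01 CPM in females, against 2.81, 2.60 and 3.25 CPM in males. In both, female replicate 1 was the highest of the 6 libraries and the other females were below every male. H2-Ke6 is a dehydrogenase gene and no MHC chain.

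The 30 class I heavy chain genes of the table, pseudogenes included, summed to 216, 112 and 97.2 CPM in females, against 222, 209 and 212 CPM in males. Of these, 16 were tested, 3 had counts but did not pass the filter and 11 were listed at 0. Female replicate 1 was below every male in 1 of the 16 tested genes, female replicate 2 in 14 and female replicate 3 in 14. Among all tested genes these shares were 23.4%, 35.6% and 58.4%. With TMM-scaled values the counts were 4, 14 and 14 of 16, and the shares of all tested genes 26.7%, 27.9% and 40.6%. The 16 genes had GC contents of 49.0 to 59.3%, and 14 of 16 were lower in females, with a median log2 fold change of -0.47, against 0.00 over all tested genes. They are not independent. For 13 of the 16, at least 20% of the 31-base words of the reference transcripts also occur in other genes, from 21.5% for H2-Bl to 67.4% for H2-T22, so counts may have been split between them. For H2-Q4 the share was 53.0%, for H2-Q6 51.8%, for H2-D1 26.9% and for H2-K1 22.8%.

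**Figure D2:**
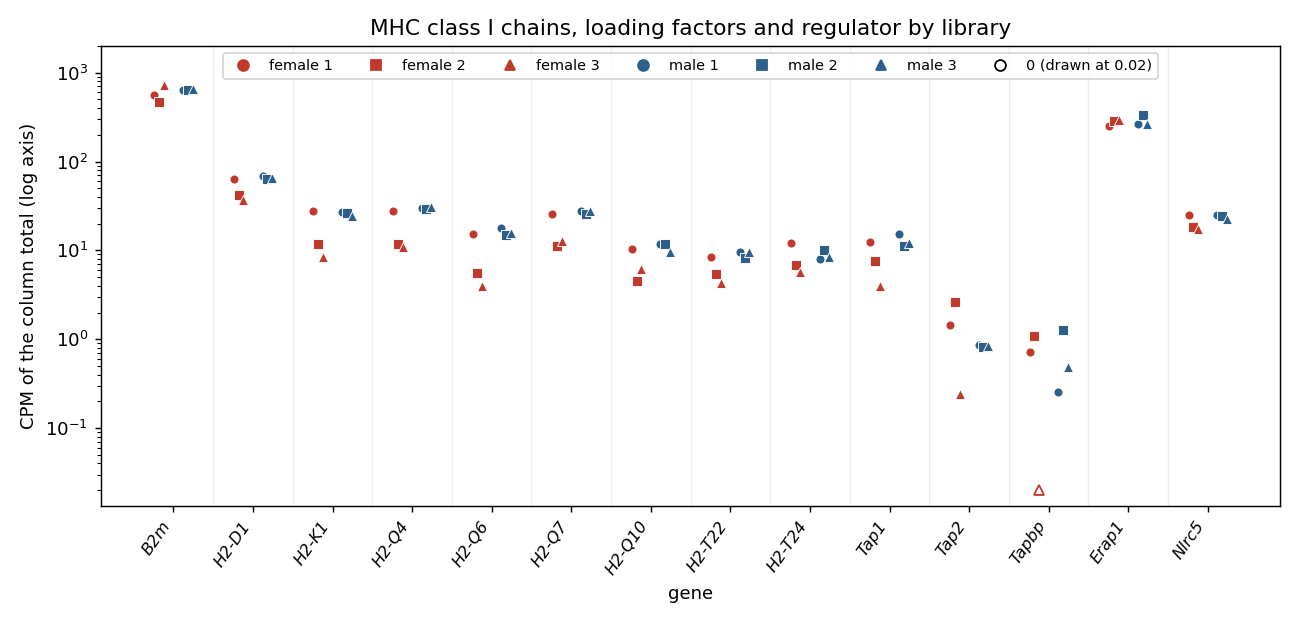
Level of each class I chain, loading and regulator gene in CPM of the column total (log axis), 1 point per library, females in red left of males in blue, with values of 0 as open symbols at 0.02. For H2-K1 the males sit between 24.4 and 26.9 CPM, with female 1 at 27.6 CPM and the other females at 11.9 and 8.54 CPM.

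Class I loading genes did not share 1 pattern over the females. Tap1, a subunit of the peptide transporter, had 12.4, 7.56 and 3.99 CPM in females, against 15.4, 11.3 and 12.1 CPM in males, with the females in the order seen for H2-D1 and H2-K1 (edgeR log2 fold change -0.62 ± 0.34 SE, adjusted p = 0.999). Tap2, its partner, had 1.44, 2.62 and 0.243 CPM in females, against 0.855, 0.821 and 0.841 CPM in males. Female replicate 2 was the highest and female replicate 3 the lowest. Tapbp, the tapasin gene that tethers class I to the transporter, was low, with 0.714, 1.10 and 0 CPM in females, against 0.256, 1.27 and 0.488 CPM in males. Outside female replicate 3 it had 8.07 to 34.9 estimated counts. Erap1, the aminopeptidase that trims peptides, had 254, 288 and 295 CPM in females, against 266, 331 and 263 CPM in males (edgeR log2 fold change 0.12 ± 0.19 SE, adjusted p = 0.999). With scaling by library totals only its log2 fold change was -0.04. Nlrc5, the coactivator of class I genes, had 25.2, 18.5 and 17.3 CPM in females, against 25.0, 24.5 and 22.8 CPM in males. Female replicates 2 and 3 lay below every male, as 35.6% and 58.4% of all tested genes did in these libraries. Female replicate 1 lay just above the highest male (edgeR log2 fold change -0.12 ± 0.18, adjusted p = 0.999). After the correction for length and GC content the log2 fold change of Nlrc5 was -0.01. Whether its level goes with those of the heavy chains was not tested.

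Over the whole comparison, 0 of the 35 tested genes passed an FDR of 0.05 with edgeR, with none higher and none lower in females, against 0.0246% and 0.0329% of all 12172 tested genes (7 genes, 0.0575% in all). DESeq2 and limma-voom also called 0 of the 35, against 0.288% and 0.0739% of all tested genes. At an unadjusted p under 0.05 edgeR had 1 gene higher in females (H2-Eb2) and 1 lower (H2-Q4), against 1.66% and 1.23% of all tested genes. At that level DESeq2 had 1 of the 35 higher and 2 lower, against 2.38% and 1.47% of all tested genes, and limma-voom had 0 higher and 4 lower, against 1.63% and 1.61%. The groups did not overlap in CPM for 1 gene with females higher and 1 with females lower, against 2.69% and 7.55% of all tested genes. With TMM-scaled values these were 1 and 4 genes (H2-D1, H2-Q4, H2-Q6 and H2-Q7), against 4.22% and 4.72%. Of the 35 genes 24 (68.6%) had a log2 fold change below 0, and the median was -0.24, while 49.9% of all tested genes were negative and their median was 0.00. Scaling by library totals only moved the median of all genes to -0.12 and that of the set to -0.36. The median of the set was -0.13 without female replicate 3, -0.51 without female replicate 1 and -0.07 after the correction for length and GC content.

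**Figure D3:**
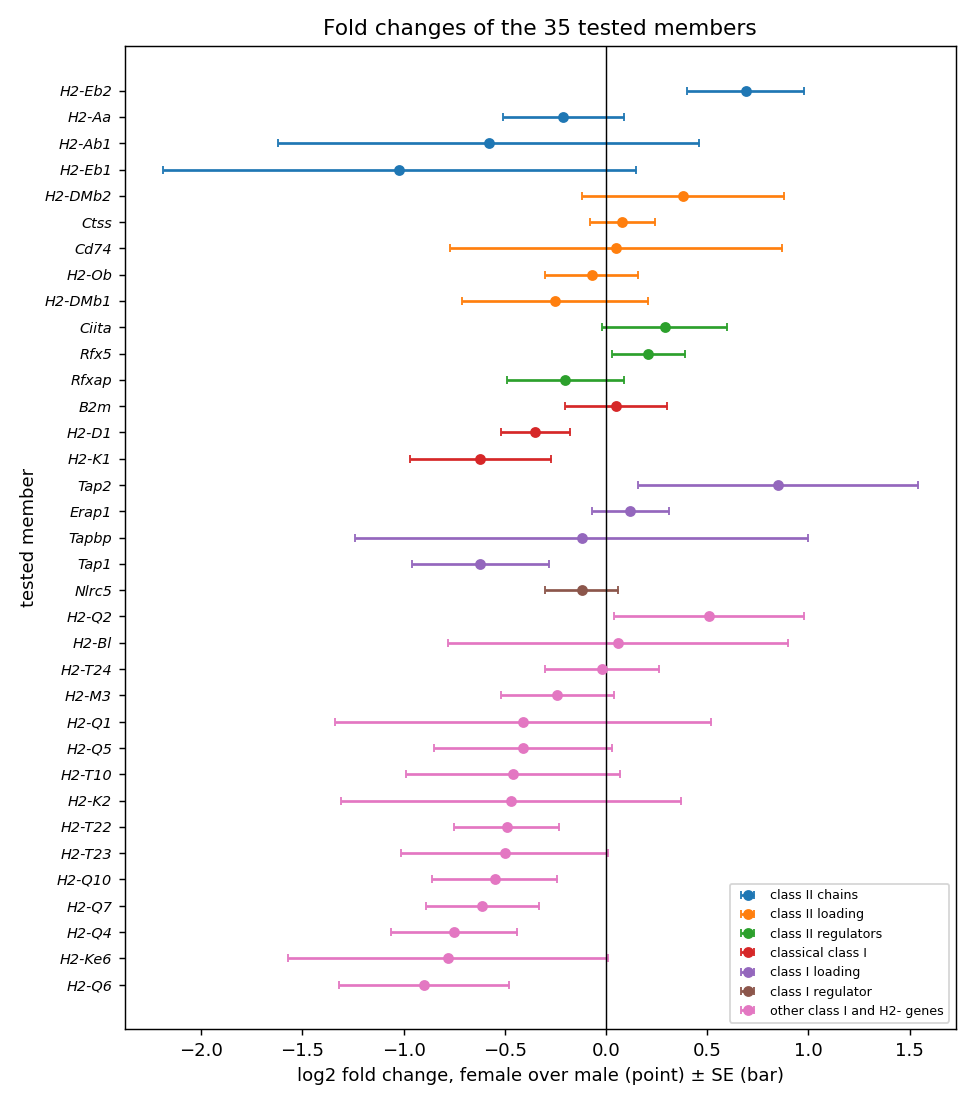
Log2 fold change, female over male, of the 35 tested genes (points) with its SE (bars), ordered by role from class II chains at the top to other class I and H2- genes at the bottom. Of the 15 genes in the bottom group 13 lie left of 0, and H2-Eb2 at 0.69 is the highest class II chain.

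By role, 3 of 4 tested class II chains were lower in females (median log2 fold change -0.40), as were 2 of 5 class II loading genes (0.05) and 1 of 3 class II regulators (0.21). For class I it was 2 of the 3 classical genes with B2m (-0.35) and 2 of 4 loading genes (0.00). Among the other H2- genes it was 13 of 15 (-0.47). None of these groups was tested as a group. The median of the class II chains ran from -0.96 without female replicate 1 to 0.07 without male replicate 1 when 1 library was left out. It was -0.02 without female replicate 3 and -1.05 with limma-voom. The median of the other H2- genes stayed negative when any 1 library was left out, from -0.95 without female replicate 1 to -0.23 without female replicate 3, and it was -0.39 after the correction for length and GC content. Leaving out female replicate 1 brought 12 of the 35 genes under an unadjusted p of 0.05, 1 higher and 11 lower in females, against 6.96% and 5.18% of the 12524 genes tested in that comparison, with 0.178 as the smallest adjusted p (H2-Q6, edgeR). In that comparison 0 of the 35 passed, against 0.0958% of all tested genes.

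The values of female replicate 3 moved with GC content. Of the 35 tested genes 22 (62.9%) were lowest in female replicate 3, against 51.2% of all tested genes, and 3 were highest in it, against 13.8%. Its log2 deviation from the other 5 libraries had a Spearman correlation with GC content of -0.37 across the 35 genes and of -0.58 across all tested genes. In the highest GC quartile the median deviation was -1.38 for the 19 MHC genes and -1.15 for all tested genes. In the lowest it was 0.32 for 3 genes of the set (B2m, Erap1 and H2-Eb2) and 0.11 for all. The log2 fold change between the sexes also fell along GC content, with a median of 0.15 in the lowest and -0.11 in the highest quartile of all tested genes, and of -0.41 for the 19 MHC genes in the highest. These correlations are across genes of the same libraries.

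**Figure D4:**
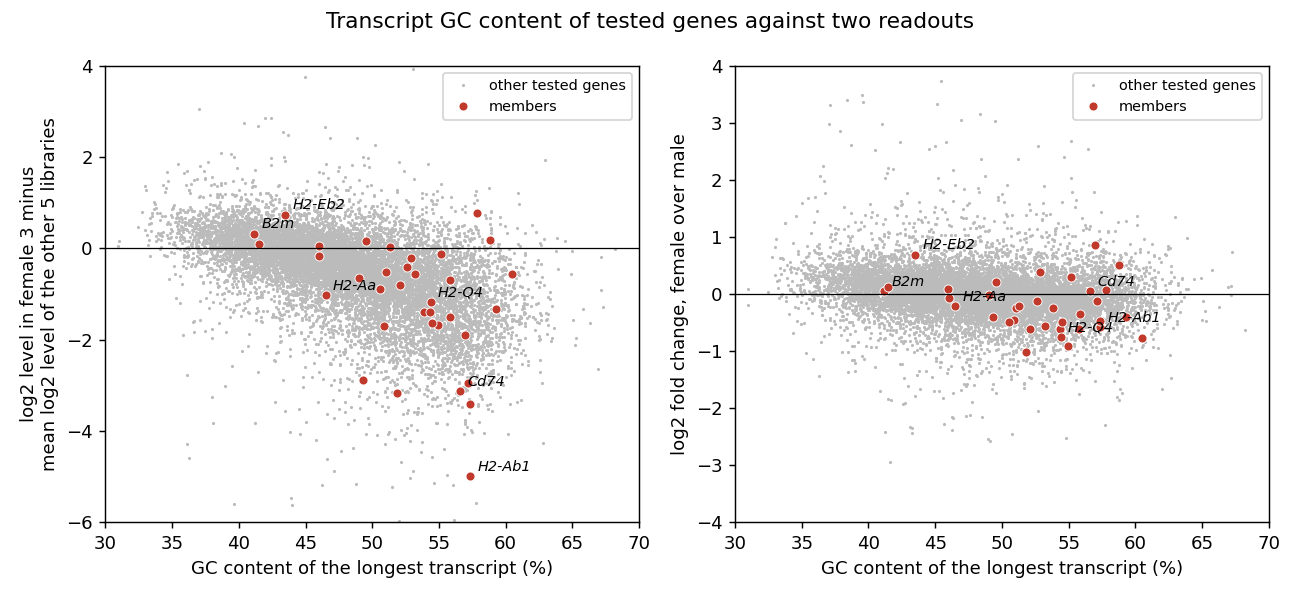
GC content of the longest transcript (%) against the log2 deviation of female 3 from the other 5 libraries (left) and against the log2 fold change, female over male (right), for tested genes (grey) and the 35 MHC genes (red). Genes beyond the axes are not drawn (21 left, 16 right, none of the MHC genes), and the deviation falls with GC content, to its lowest among MHC genes at H2-Ab1.

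Other genes of the pathway, from a fixed list that is not part of the set, gave no call either. Of 30 measured genes 29 were tested, 14 were higher and 15 lower in females, and the median log2 fold change was -0.04. With edgeR 0 passed, against 0.0575% of all tested genes. At an unadjusted p under 0.05 edgeR had 0 higher and 1 lower in females, against 1.66% and 1.23% of all tested genes. The lower one was Ctsh, the protease cathepsin H. It had 34.7, 27.4 and 18.3 CPM in females, against 38.6, 38.2 and 39.9 CPM in males (edgeR log2 fold change -0.43 ± 0.18 SE, adjusted p = 0.999). Pdia3 (log2 fold change 0.25 ± 0.17) and Canx (0.25 ± 0.19), chaperones of class I folding, and March1 (0.43 ± 0.31), a ubiquitin ligase that removes class II from the surface, followed by p. March1 had 68.5, 108 and 103 CPM in females, against 63.6, 107 and 62.2 CPM in males, so female replicate 1 and male replicates 1 and 3 were the low ones. Psmb9, a subunit of the immunoproteasome beside Tap1, had 8.22, 3.27 and 1.49 CPM in females, against 6.61, 3.58 and 6.33 CPM in males.

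Other cells that carry class II could add to these levels. Dendritic cell markers (10 genes, 2 at 0 in all libraries) summed to 8.96 to 26.5 CPM in females, against 20.1 to 27.4 CPM in males, with Ccr7, which activated B cells also express, the highest of them in each library. Monocyte and macrophage markers (11 measured genes) summed to 4.14 to 8.29 CPM in females, against 1.18 to 1.45 CPM in males. Of the 3 tested ones, 2 (Lyz2 and Spic) were higher in females at an unadjusted p under 0.05 with edgeR, against 1.66% of all tested genes. Cd68, the other tested one, averaged 0.604 CPM in females and 0.606 CPM in males (edgeR log2 fold change 0.06 ± 0.57 SE). Lyz2, the lysozyme of myeloid cells, had 2.39, 3.32 and 2.20 CPM in females, against 0.282, 0.290 and 0.390 CPM in males (edgeR log2 fold change 3.15 ± 0.40 SE, adjusted p = 0.0837), and did not pass. Spic, a transcription factor of red pulp macrophages, had 1.34, 2.16 and 0.929 CPM in females, against 0.307, 0.343 and 0.400 CPM in males (edgeR log2 fold change 2.19 ± 0.45 SE, adjusted p = 0.797). Every female was above every male for both, as for 2.69% of all tested genes in CPM. Plasma cell markers, of cells that lose class II, summed to 269 to 455 CPM in females, against 247 to 293 CPM in males. Irf4 and Xbp1 had the highest levels of this list in each library, so the sum mostly follows them. Whether their reads came from plasma cells was not tested. In edgeR 3 of the 5 had an unadjusted p under 0.05 with females higher (Igj, Prdm1 and Irf4), against 1.66% of all tested genes. The other markers of the list, Sdc1 and Xbp1, had log2 fold changes of 0.00 ± 0.37 and 0.00 ± 0.16 (SE). GC contents were 38.2% (Igj), 46.3% (Prdm1) and 47.6% (Irf4), against 55.2% (Sdc1) and 53% (Xbp1). The part of GC content in this difference was not tested. In Prdm1, female replicate 2 stood highest with 61.5 CPM, next to 22.1 and 22.9 CPM in the other females and 11.7, 12.8 and 12.9 CPM in males. The part of these cells in the levels of the MHC genes was not tested. In a bulk library, fewer cells of a type and less RNA per cell cannot be told apart.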

How the data were processed

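RNA of splenic B cells cultured with CpG was sequenced, with 1 library per mouse (3 females, 3 males). The authors' deposited table holds estimated counts per gene symbol, not scaled to a common depth. The submitters' processing notes name kallisto, DESeq2 and the build GRCm38.p6. Tool versions, the transcript set indexed and other settings were not given there. Levels are CPM of the column total. The estimated counts were rounded to whole numbers for the tests. Females were compared with males across the whole table with edgeR 4.0.16 under R 4.3.3, using filterByExpr with sex as the group, TMM factors (0.816 for female replicate 3 and 0.993 to 1.07 for the others), glmQLFit, glmQLFTest, and Benjamini-Hochberg adjustment over 12172 genes at 0.05. The SE was taken as |log2 fold change|/√F. Alternatives were DESeq2 1.42.0, limma-voom (limma 3.58.1), RLE factors, library totals only, no filter, the mouse number as a block and leaving out 1 library at a time. A correction for transcript length and GC content in each library (natural splines of 4 degrees of freedom, 12014 genes) was chosen after seeing the data. Deviations of female replicate 3 are on log2(CPM + 0.1). Gene positions, the longest transcript, its GC content and the 31-base words (both strands, shared with any other gene) are from GENCODE M21 (GRCm38). Promoters are from RefSeq (GRCm38.p6). The comparison was also run on simulated data, and the outcome is not given here. Figures were drawn with matplotlib 3.10.9.

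Genes named with values were those of the listed class I and II roles, any other H2- gene averaging 5 CPM or more, and any other gene of the set with p under 0.05. Of the other pathway genes, the 4 with the smallest p were named. H2-T23, H2-M3, H2-T10, H2-Q5, Psmb9, Ms4a1, Lyz2, Spic, Cd68, Ccr7, Igj, Irf4, Prdm1, Sdc1 and Xbp1 were named after their values were seen. The same holds for the sum over heavy chains and its counts by library. The members and lists were chosen with earlier results of these data known.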

Additional observations from a re-analysis of the deposited data

How the results depend on the processing

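No member was called in the edgeR comparison or in any of the 13 alternatives, which include each library left out in turn. Over the whole table edgeR called 7 genes, DESeq2 35, and both the fit without a low-count filter and the fit with the correction for length and GC content called 11. Leaving out 1 library gave 4 to 12 calls, with 12 without female replicate 1 or female replicate 3 and 4 without female replicate 2 and without either of male replicates 1 and 2. The replicate block (mouse number as a block) gave 7 calls over the whole table and 0 among the members, and not every mouse correlated best with its own number. Both sexes share mouse numbers in the labels, but the deviations of same-numbered mice from their group means correlated at 0.222, 0.0423 and 0.0695 for numbers 1, 2 and 3, so the numbers were not taken to pair the mice. Of 338 log2 fold changes of the 26 named and tested genes under the alternatives, 314 kept their sign and 24 did not, and 15 genes kept it throughout.

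For B2m the log2 fold change was -0.13 with library totals only, -0.01 with the replicate block and -0.01 with limma-voom. Cd74 had -0.61 with the replicate block, -0.77 with limma-voom and -0.05 after that correction. Ctss had -0.06 and Erap1 -0.04 with library totals only. After it Erap1 had -0.06, H2-T24 0.09 and Rfxap 0.07. Leaving out 1 library at a time gave ranges of -0.30 to 0.23 for B2m, -1.39 to 0.55 for Cd74, -0.06 to 0.25 for Erap1, -0.77 to 0.03 for H2-DMb1, -0.21 to 0.72 for H2-DMb2, -1.96 to 0.22 for H2-Eb1, -0.29 to 0.13 for H2-Ob, -0.30 to 0.10 for H2-T24 and -0.98 to 0.73 for Tapbp. The cause of these changes was not tested. Of the tested genes, 4 (H2-Ab1, H2-Eb1, H2-Q1 and Tapbp) were at or under the floor of 3 counts in 1 library, female replicate 3, which was the deepest. Of the untested ones with counts, H2-DMa, H2-M5, H2-Oa, H2-T3 and Rfxank were at or under it in some libraries, and H2-M2 in all.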
